A study of Mus musculus with 12 samples.

Results

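Genes that answer interferon or serve antigen presentation were examined in S1 tumorspheres, chosen by gene symbol among the protein-coding genes of the deposited tables. The symbols included those of the Irf, Ifit, Ifi, Oas, Gbp, H2, *Tap1* and *Tap2* families, of *Stat2*, of *Trim21*, *Trim25* and *Trim30a*, and of *Isg15*, *Usp18*, *Rsad2*, *Mx1*, *Mx2*, *Bst2*, *Ddx58*, *Ifih1*, *B2m*, *Tapbp*, *Psmb8*, *Psmb9* and *Nlrc5*. The rule found 77 of 13983 protein-coding genes, among 18926 genes in all, and all 77 passed the filter on low counts that left 18053 genes for testing. *Mx1* and *Mx2* were typed as pseudogenes in these tables and were not counted.

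S1 is a cell line from a gastric cancer of the ChetPS mouse, which carries conditional alleles of *Cdh1* (heterozygous), *Trp53* and *Smad4*, so all groups share that background. Cas9 was introduced by a PiggyBac transposon and guide RNAs by lentivirus, and the cells were antibiotic-selected pools and not single clones. The 12 libraries of total RNA fell into 4 genotypes with 3 libraries each: control (non-targeting guide or empty backbone), *Rasa1*-KO, *Nf2*-KO and double-KO. Total counts ran from 43818139 to 96674463 per library. The sample labels describe monolayer cells, whereas the culture protocol and the study describe tumorspheres. The legend of the study calls its points technical replications, so p-values measure the spread between libraries, which may be technical.

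The targeted genes went against 2 of the labels. *Nf2*, in CPM (its counts scaled to the raw total of the library), was between 57.4 and 64.9 in control and between 13.0 and 14.4 in *Nf2*-KO, but between 11.1 and 11.5 in labelled *Rasa1*-KO and between 56.3 and 59.2 in labelled double-KO. *Rasa1* was between 59.7 and 90.3 CPM in control, between 29.3 and 32.9 in labelled *Rasa1*-KO, between 16.7 and 23.7 in labelled double-KO and between 95.4 and 102.5 in *Nf2*-KO. The names of the deposited tables also give these 2 sets of libraries with the genotypes exchanged. These groups are therefore called labelled *Rasa1*-KO and labelled double-KO throughout, and if the labels were exchanged every value given here for one of them would belong to the other. The control library without a number and the labelled double-KO library 1 stood apart from the others of their groups, and the counts below that rest on them are given without them as well.

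Type I and type III interferons signal through JAK kinases to complexes that hold STAT2 and IRF9 and bind the interferon-stimulated response element (ISRE) in front of their target genes, whereas interferon γ acts through STAT dimers and IRF1. The targets include sensors of viral RNA, enzymes that block viral replication, guanylate-binding proteins (GBPs) that attack vacuoles of intracellular microbes, and the machinery that cuts peptides, moves them into the endoplasmic reticulum and loads them on MHC class I. Epithelial and tumor cells keep part of this program switched on without added interferon, and class I molecules on tumor cells are what cytotoxic T cells recognise.

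Levels of the 77 genes covered a wide range. By FPKM, which divides reads by transcript length, the mean control level was 174 ± 53.8 for *H2-D1*, 115 ± 20.2 for *B2m*, 97.2 ± 23.8 for *Tapbp* and 69.2 ± 17.4 for *H2-K1* (SD, n = 3), and these were the 4 genes over 50 FPKM. By contrast, 23 of the 77 were under 1 FPKM in control, among them *Oas2* at 0.289 ± 0.14 and *Rsad2* at 0.169 ± 0.0219 (SD, n = 3). Of the interferons on the list of ligands and receptors only *Ifne* was measured, at a mean of 0.116 CPM in control. CPM from here on are scaled by TMM factors, which correct for differences in composition between libraries.

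Over the 4 groups, 53 of 77 genes differed at an adjusted p under 0.05 by edgeR, beside 46.3% of all genes tested. In *Nf2*-KO against control 46 genes passed, beside 42.8% of all genes: 20 were higher (20.6% of all genes were) and 26 lower (22.2%). In labelled *Rasa1*-KO against control 41 passed, beside 41.9%: 19 were higher (19.7%) and 22 lower (22.2%). In labelled double-KO against control 12 passed, beside 6.46%: 7 were higher (4.0%) and 5 lower (2.46%). These comparisons share the control libraries. The median log2 fold change of the 77 genes was −0.25 in *Nf2*-KO, −0.09 in labelled *Rasa1*-KO and 0.24 in labelled double-KO, beside −0.07, −0.08 and −0.04 over all genes. The genes did not all move in 1 direction, and some families held genes that rose and genes that fell, as the heat map shows. By the calling rule of the study, a 3-fold difference or more with an unadjusted p under 0.05, 14 of the 77 genes were called in *Nf2*-KO (11.4% of all genes), 9 in labelled *Rasa1*-KO (9.27%) and 1 in labelled double-KO (2.03%).

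**Figure D1:**
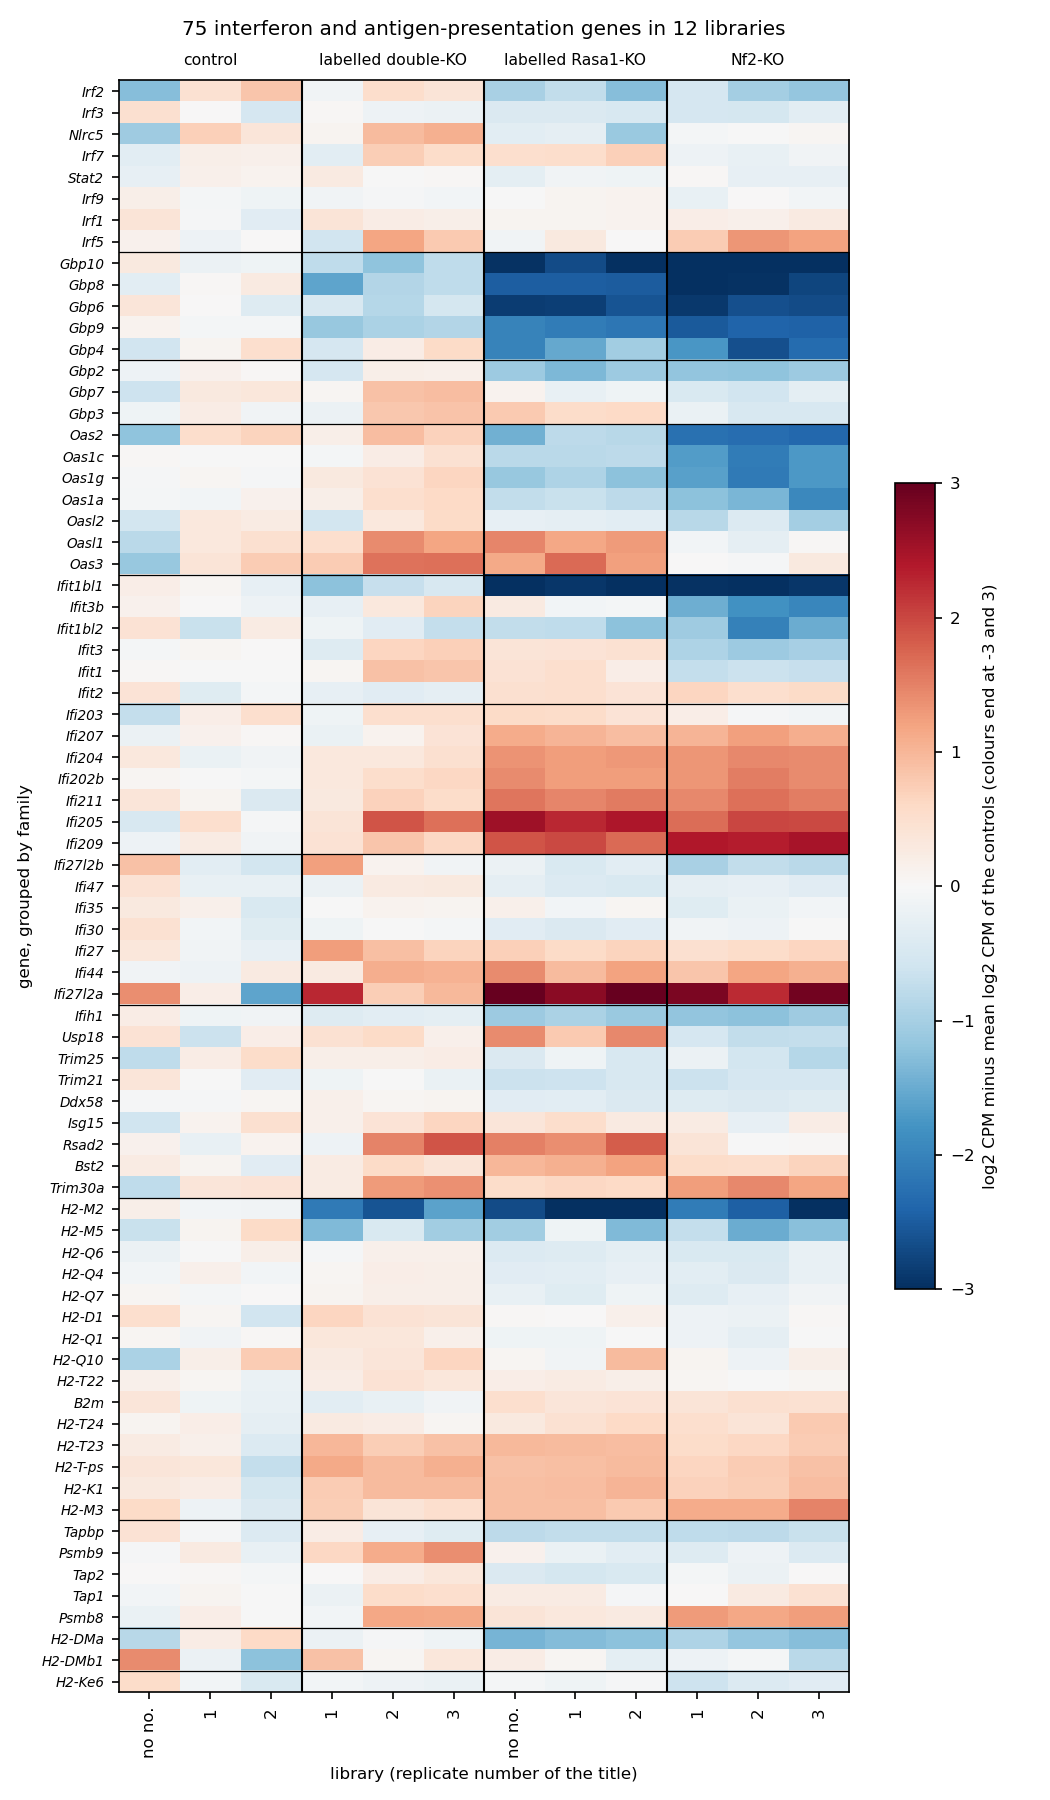
Log2 CPM of 75 of the 77 genes (rows, grouped by family) in each of the 12 libraries (columns, numbered as in the sample titles), minus the mean log2 CPM of the 3 control libraries. The chromosome 5 Gbp genes, *Ifit1bl1* and *H2-M2* are dark blue in the *Nf2*-KO and labelled *Rasa1*-KO libraries, and 6 of the 7 Ifi200 genes are red in the same libraries.

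**Figure D2:**
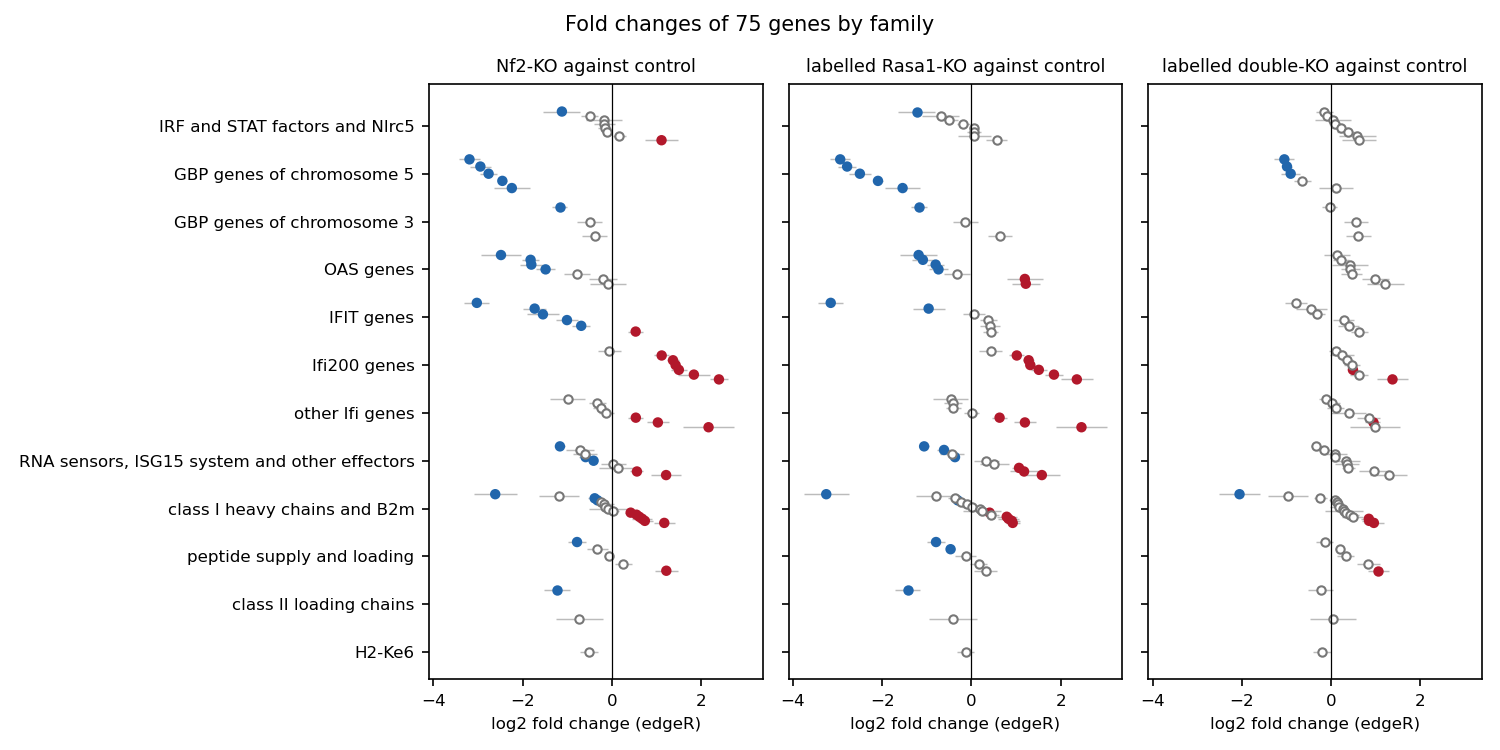
Log2 fold change of 75 of the 77 genes (x axis, edgeR) against control by family (y axis) in *Nf2*-KO, labelled *Rasa1*-KO and labelled double-KO. Filled points have an adjusted p under 0.05 (red higher, blue lower), open points do not, and lines are standard errors. The chromosome 5 Gbp genes lie between −3.19 and −2.24 in *Nf2*-KO, and the Ifi200 genes between −0.05 and 2.40.

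Short stretches of promoters are shown because they carry the letters by which interferon-regulated genes are usually recognised, and because close paralogs can be compared in them. The core searched was GAAANNGAAA on either strand (TTTCNNTTTC), the repeat at the heart of the ISRE, in the window from 250 bases before to 50 bases after each RefSeq start site (GRCm38.p6). Of the 77 genes, 60 had a promoter in the table used, and 28 of these (46.7%) held the core, beside 3.99% of 27025 genes and 3.44% of 32851 promoters. The core of the STAT dimer site, TTCNNNGAA, was in 10 of the 60 (16.7%), beside 9.55% of genes, and overlapped the ISRE core in 1. Each line gives a gene, its position and strand, and the sequence 5′ to 3′ along the gene with the ISRE core in capitals.
*Gbp2*, chr3:142620592-142620625, plus strand: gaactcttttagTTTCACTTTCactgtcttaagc
*Oas1a*, chr5:120907518-120907557, minus strand: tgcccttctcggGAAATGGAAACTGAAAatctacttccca
*Oas1g*, chr5:120887604-120887643, minus strand: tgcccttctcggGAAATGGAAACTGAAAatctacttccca
*Oas1c*, chr5:120812601-120812640, minus strand: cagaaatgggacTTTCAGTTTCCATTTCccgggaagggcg
*Ifih1*, chr2:62646206-62646235, minus strand: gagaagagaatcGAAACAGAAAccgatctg
*Ifit1*, chr19:34640773-34640825, plus strand: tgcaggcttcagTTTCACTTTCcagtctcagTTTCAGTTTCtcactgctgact
*Ifit3*, chr19:34583361-34583428, plus strand: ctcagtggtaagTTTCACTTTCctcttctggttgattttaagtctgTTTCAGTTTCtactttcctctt
*Ifit3b*, chr19:34607757-34607824, plus strand: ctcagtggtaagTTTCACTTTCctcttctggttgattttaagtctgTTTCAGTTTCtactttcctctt
*Ifi205*, chr1:174031868-174031901, minus strand: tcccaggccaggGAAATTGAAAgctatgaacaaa
*Ifi207*, chr1:173741829-173741862, minus strand: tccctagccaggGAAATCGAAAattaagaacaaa
*Ifi211*, chr1:173913062-173913095, minus strand: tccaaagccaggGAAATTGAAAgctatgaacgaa
*B2m*, chr2:122147536-122147569, plus strand: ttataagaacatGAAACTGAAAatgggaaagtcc
*H2-T23*, chr17:36032804-36032837, minus strand: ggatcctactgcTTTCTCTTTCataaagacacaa
*Bst2*, chr8:71537575-71537614, minus strand: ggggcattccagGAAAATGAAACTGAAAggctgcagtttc
*Isg15*, chr4:156200863-156200908, minus strand: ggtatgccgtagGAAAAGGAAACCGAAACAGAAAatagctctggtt

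The core lay in the promoter windows of genes that moved in opposite directions. The stretch shown for *Ifih1* lies after the start site, from base 20 to base 49. The window of *Ifi205* holds 2 cores, of which the first is shown. Of the genes with a promoter in the table, it was in 13 of 18 that fell in *Nf2*-KO, in 7 of 16 that rose and in 8 of 26 that did not pass. In labelled *Rasa1*-KO it was in 10 of 14 that fell, in 8 of 15 that rose and in 10 of 31 that did not pass. The stretches of *Oas1a* and *Oas1g* were identical, as were those of *Ifit3* and *Ifit3b*, and reads shared by such paralogs may have been split between them. The chromosome 5 Gbp genes, *Oas2*, *Usp18*, *Nlrc5* and *Tap2* were among the 17 genes without a promoter in the table.

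The receptors and kinases that carry the interferon signal were taken from a list of 20 genes, of which 15 were measured. In *Nf2*-KO 4 of the 15 were higher than in control and 5 lower, and in labelled *Rasa1*-KO also 4 and 5. Of all genes 20.6% were higher and 22.2% lower in *Nf2*-KO, and 19.7% and 22.2% in labelled *Rasa1*-KO. *Ifngr2*, a chain of the interferon γ receptor, was lower in *Nf2*-KO (log2 fold change −1.04 ± 0.12 SE, adjusted p = 3.66e-05), and *Ifnlr1*, the receptor of type III interferon, was lower there too (−1.15). In labelled *Rasa1*-KO *Il10rb*, a chain shared by the type III and interleukin-10 receptors, and *Ifngr2* were lower by the most (−0.60 and −0.53). *Socs1* and *Socs3*, feedback inhibitors of JAK signaling, were higher in *Nf2*-KO (1.09 and 0.96) and in labelled *Rasa1*-KO (0.96 and 0.92). *Socs3* was also the gene of the list that was higher in labelled double-KO (0.99, adjusted p = 0.0213).

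Of the 10 genes for IRF and STAT factors and NLRC5, 4 passed against control in *Nf2*-KO, 2 in labelled *Rasa1*-KO and 1 in labelled double-KO. Of all genes tested 42.8%, 41.9% and 6.46% passed in these comparisons. *Irf5*, a factor of innate immune cells, rose in *Nf2*-KO from a low level (0.651 ± 0.0633 to 1.41 ± 0.271 CPM, SD, n = 3). Its log2 fold change was 1.11 (adjusted p = 0.0329), and its span overlaps that of *Tnpo3*. *Stat2* and *Irf9*, partners in the complex that binds the ISRE, did not pass in any comparison with control, and neither did *Irf1*, the interferon γ effector, with a mean of 92.5 ± 24.0 CPM in control and 104 ± 4.36 in *Nf2*-KO (SD, n = 3). With the unnumbered control left out, however, *Irf1* was higher in all 3 comparisons (0.39, adjusted p = 0.00538, in *Nf2*-KO, 0.28, adjusted p = 0.029, in labelled *Rasa1*-KO and 0.45, adjusted p = 0.0075, in labelled double-KO). Without both libraries that stood apart *Stat2* was lower in *Nf2*-KO (−0.28, adjusted p = 0.0395) and in labelled *Rasa1*-KO (−0.30, adjusted p = 0.029). *Irf7*, which amplifies type I interferon, was at 4.86 ± 0.901 CPM in control, 4.31 ± 0.195 in *Nf2*-KO and 7.21 ± 0.562 in labelled *Rasa1*-KO (SD, n = 3), and did not pass against control, although it rose in labelled *Rasa1*-KO when labelled double-KO library 1 was left out of the fit (0.57, adjusted p = 0.014). *Irf3*, the factor that switches on interferon β, was at −0.50 in both *Nf2*-KO and labelled *Rasa1*-KO and did not pass (adjusted p = 0.0553 and 0.0539), although it did without control library 2 (−0.72, adjusted p = 0.0011, and −0.72, adjusted p = 0.00128). Without the unnumbered control *Irf3* was at −0.22 (adjusted p = 0.174) in *Nf2*-KO and −0.23 (adjusted p = 0.164) in labelled *Rasa1*-KO.

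*Irf2*, which restrains IRF1 targets, fell in *Nf2*-KO (−1.12 ± 0.41 SE, adjusted p = 0.0472) and in labelled *Rasa1*-KO (−1.22 ± 0.42, adjusted p = 0.034), but its control libraries ranged from 6.26 CPM without a number to 20.9 and 27.2. Without that control library the values were −1.53 and −1.63, and the calls held under 6 and 12 of 21 alternatives. *Nlrc5*, the transactivator of class I genes, did not pass against control and was at 0.839, 2.89 and 2.26 CPM there. Without the first of these libraries, which has no number, it was lower in labelled *Rasa1*-KO (−1.07, adjusted p = 0.0105, beside −0.69 and 0.202 with it). It was higher in labelled double-KO than in labelled *Rasa1*-KO (1.28 ± 0.42 SE, adjusted p = 0.0371), a call that held under 10 of 21 alternatives.

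The guanylate-binding proteins fell together where their genes lie on chromosome 5. The 5 genes of the chromosome 5 cluster (between positions 105012513 and 105295871 of chromosome 5, GRCm38.p6) all fell in *Nf2*-KO and in labelled *Rasa1*-KO. In each of these comparisons 22.2% of all genes fell. *Gbp9* was at 41.6, 37.5 and 37.6 CPM in control, at 6.77, 7.32 and 7.24 in *Nf2*-KO, at 9.63, 9.08 and 8.65 in labelled *Rasa1*-KO, and at 17.6, 20.1 and 21.2 in labelled double-KO. The libraries of the 3 other groups all lay under control, and labelled double-KO stood between control and the rest. The log2 fold changes were −2.45 ± 0.11 (SE) in *Nf2*-KO (adjusted p = 2.81e-08), −2.09 ± 0.11 in labelled *Rasa1*-KO (adjusted p = 1.35e-07) and −0.99 ± 0.10 in labelled double-KO (adjusted p = 0.000371).

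*Gbp6* was at 27.5, 21.3 and 16.3 CPM in control and between 2.86 and 3.50 in all 6 *Nf2*-KO and labelled *Rasa1*-KO libraries, with between 11.7 and 15.3 in labelled double-KO. It was lower by 6.78-fold in *Nf2*-KO and by 6.89-fold in labelled *Rasa1*-KO, and did not pass in labelled double-KO (−0.64, adjusted p = 0.0627; −0.80, adjusted p = 0.0159, without control library 2). *Gbp10* fell from 5.75 ± 1.03 CPM in control to 0.63 ± 0.0596 in *Nf2*-KO and 0.748 ± 0.131 in labelled *Rasa1*-KO (SD, n = 3), the largest fall of the family in both. *Gbp8* fell 7.70-fold and 5.65-fold, and *Gbp4* 4.72-fold and 2.91-fold. In labelled double-KO *Gbp8* (−1.05) and *Gbp10* (−0.90) fell as well, whereas *Gbp4* was at 2.39 ± 0.843 CPM beside 2.23 ± 0.796 in control (SD, n = 3). The calls of *Gbp8* and *Gbp10* there were lost without labelled double-KO library 2 (adjusted p = 0.0552 and 0.118). All 5 were higher in labelled double-KO than in labelled *Rasa1*-KO, by 1.11 to 2.14 on the log2 scale.

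The 3 GBP genes of chromosome 3 behaved otherwise. *Gbp2*, which coats pathogen vacuoles, was at 13.4, 16.2 and 15.1 CPM in control and between 5.83 and 7.03 in the 6 *Nf2*-KO and labelled *Rasa1*-KO libraries. It fell by 1.17 ± 0.17 (SE) on the log2 scale in *Nf2*-KO (adjusted p = 0.000253) and by 1.18 ± 0.18 in labelled *Rasa1*-KO (adjusted p = 0.000301), and was at −0.03 in labelled double-KO. *Gbp7* was at −0.49 in *Nf2*-KO and −0.14 in labelled *Rasa1*-KO, and *Gbp3* at −0.39 and 0.65, and neither passed against control. The control library without a number was the lowest of its group for *Gbp7* (3.09 CPM beside 5.84 and 6.03), and without it *Gbp7* was lower in *Nf2*-KO (−0.75, adjusted p = 0.0129).

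**Figure D3:**
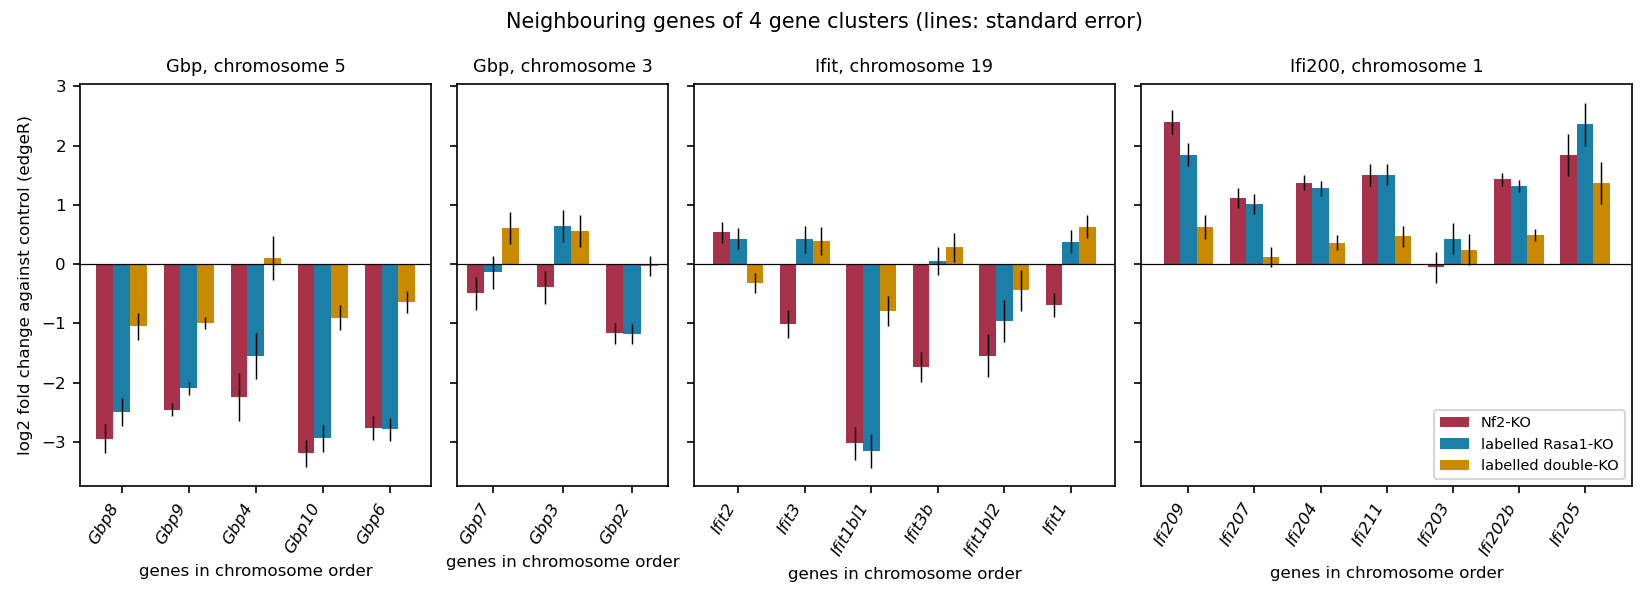
Log2 fold changes against control (bars, edgeR, with standard errors) of the genes of 4 clusters in their order along the chromosome, in *Nf2*-KO, labelled *Rasa1*-KO and labelled double-KO. All 5 Gbp genes of chromosome 5 are below 0 in *Nf2*-KO and labelled *Rasa1*-KO, *Ifit1bl1* is near −3 in both, and *Ifi203* is the Ifi200 gene near 0 in *Nf2*-KO.

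The oligoadenylate synthetase family, whose active members make a messenger that sets off RNA decay after double-stranded RNA is sensed, split in direction. *Oas1a* was at 2.06, 2.06 and 2.38 CPM in control, 0.917, 0.833 and 0.569 in *Nf2*-KO, 1.29, 1.35 and 1.24 in labelled *Rasa1*-KO, and 2.46, 3.05 and 3.25 in labelled double-KO. The 6 *Nf2*-KO and labelled *Rasa1*-KO libraries lay under control, and the labelled double-KO libraries above it. It fell by 1.48 ± 0.22 (SE) in *Nf2*-KO (adjusted p = 0.00024) and by 0.74 ± 0.22 in labelled *Rasa1*-KO (adjusted p = 0.0173), and did not pass in labelled double-KO (0.43, adjusted p = 0.272). The call in labelled *Rasa1*-KO was lost without its unnumbered library (−0.74, adjusted p = 0.0541) or its library 2 (−0.71, adjusted p = 0.0618). *Oas1c*, *Oas1g* and *Oas2* fell in the same 2 groups, by 1.82, 1.80 and 2.48 in *Nf2*-KO and by 0.80, 1.09 and 1.18 in labelled *Rasa1*-KO. The call of *Oas2* in labelled *Rasa1*-KO held under 10 of 21 alternatives.

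*Oasl1* and *Oas3* went the other way in labelled *Rasa1*-KO. *Oasl1*, which lacks synthetase activity and represses translation of *Irf7*, was at 1.64, 3.55 and 4.01 CPM in control, 7.92, 6.41 and 6.96 in labelled *Rasa1*-KO, 2.72, 2.36 and 2.91 in *Nf2*-KO, and 4.08, 7.68 and 6.47 in labelled double-KO. It rose by 1.22 ± 0.31 (SE) in labelled *Rasa1*-KO (adjusted p = 0.00876) and was at −0.20 in *Nf2*-KO (adjusted p = 0.633). *Oas3* rose by 1.20 there (adjusted p = 0.0344), and was at 0.531 CPM in the control library without a number beside 1.52 and 1.96 in the others. *Oasl2*, the active relative of *Oasl1*, did not pass (−0.78 in *Nf2*-KO, adjusted p = 0.0525, and −0.32 in labelled *Rasa1*-KO), but it passed in *Nf2*-KO under 8 of 21 alternatives, among them leaving out the unnumbered control (−1.0, adjusted p = 0.006).

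The IFIT proteins bind foreign RNA ends and block its translation, and their genes lie side by side on chromosome 19. *Ifit3b* was at 2.93, 2.72 and 2.42 CPM in control and at 0.976, 0.764 and 0.697 in *Nf2*-KO, but at 3.25, 2.56 and 2.59 in labelled *Rasa1*-KO and 2.26, 3.32 and 4.27 in labelled double-KO. The *Nf2*-KO libraries thus lay under all others, and the other 3 groups overlapped. It fell by 1.73 ± 0.25 (SE) in *Nf2*-KO (adjusted p = 0.000212) and was at 0.05 in labelled *Rasa1*-KO (adjusted p = 0.87). *Ifit3* and *Ifit1* fell in *Nf2*-KO as well (−1.0, adjusted p = 0.00523, and −0.68, adjusted p = 0.0165), whereas *Ifit2* rose (0.53, adjusted p = 0.0276). The *Ifit1* call was lost without *Nf2*-KO library 1 or library 3. In labelled *Rasa1*-KO *Ifit3* and *Ifit1* did not pass (0.42 and 0.38), nor in labelled double-KO (0.40 and 0.63). Without labelled double-KO library 1 both were higher in labelled *Rasa1*-KO (adjusted p = 0.0135 and 0.0308). They were then also higher in labelled double-KO (0.67, adjusted p = 0.0102, and 0.86, adjusted p = 0.00508). *Ifit1bl1*, whose annotated span overlaps *Ifit3b*, *Ifit1bl2* and *Ifit1*, fell from 2.30 ± 0.346 CPM in control to 0.282 ± 0.0274 in *Nf2*-KO and 0.258 ± 0.0434 in labelled *Rasa1*-KO (SD, n = 3), with as few as 17 counts in a library.

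The Ifi200 genes encode DNA-binding proteins related to AIM2 and form a cluster on chromosome 1 (between positions 173630859 and 174031755, GRCm38.p6). In both *Nf2*-KO and labelled *Rasa1*-KO 6 of the 7 rose, beside 20.6% and 19.7% of all genes. *Ifi202b* was at 30.2, 28.8 and 27.9 CPM in control, 72.4, 84.0 and 77.8 in *Nf2*-KO, 77.8, 69.5 and 69.4 in labelled *Rasa1*-KO, and 36.0, 41.8 and 44.3 in labelled double-KO. No group overlapped control, and labelled double-KO lay between control and the rest. It rose by 1.43 ± 0.11 (SE) in *Nf2*-KO (adjusted p = 1.26e-06), 1.32 ± 0.11 in labelled *Rasa1*-KO (adjusted p = 3.57e-06) and 0.49 ± 0.10 in labelled double-KO (adjusted p = 0.0175). *Ifi204* rose from 19.3 ± 3.73 CPM to 49.9 ± 2.22 in *Nf2*-KO and 46.9 ± 1.79 in labelled *Rasa1*-KO (SD, n = 3).

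Folds differed among the other Ifi200 genes. *Ifi209* rose 5.28-fold in *Nf2*-KO and 3.60-fold in labelled *Rasa1*-KO, from 0.662 ± 0.0993 CPM in control (SD, n = 3). *Ifi205* rose 3.58-fold and 5.14-fold, and *Ifi211* 2.83-fold and 2.85-fold. *Ifi207* rose 2.17-fold and 2.02-fold. *Ifi203* was the exception, at 19 ± 7.44 CPM in control, 18.3 ± 1.88 in *Nf2*-KO and 25.6 ± 1.42 in labelled *Rasa1*-KO (SD, n = 3), and did not pass. In labelled double-KO against control *Ifi205* (1.38, adjusted p = 0.0415) passed besides *Ifi202b*, under 8 of 21 alternatives, and the 6 genes were lower in labelled double-KO than in labelled *Rasa1*-KO by 0.83 to 1.23 on the log2 scale.

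Of the remaining Ifi genes, *Ifi27l2a* rose most (2.17 ± 0.57 SE, adjusted p = 0.00987, in *Nf2*-KO and 2.47 ± 0.58, adjusted p = 0.00545, in labelled *Rasa1*-KO), but its control libraries were at 0.946, 0.408 and 0.119 CPM and its lowest count was 6. Its span overlaps that of *Ifi27*, a mitochondrial membrane protein induced by type I interferon, which rose in all 3 comparisons with control (0.54, 0.63 and 0.94 in *Nf2*-KO, labelled *Rasa1*-KO and labelled double-KO). *Ifi44* rose in *Nf2*-KO (1.03) and labelled *Rasa1*-KO (1.20). *Ifi30*, a lysosomal reductase that prepares antigens, and *Ifi35* did not pass in any of the 3.

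Of the cytoplasmic RNA sensors, *Ifih1* and *Ddx58* fell in *Nf2*-KO and labelled *Rasa1*-KO, whereas *Dhx58*, a relative that was not counted among the 77, did not pass (−0.06, adjusted p = 0.867, and 0.36, adjusted p = 0.255). *Ifih1*, which encodes MDA5, was at 34.6, 27.5 and 27.9 CPM in control, 13.2, 12.8 and 14.3 in *Nf2*-KO, 13.9, 15.5 and 13.8 in labelled *Rasa1*-KO, and 22.9, 24.0 and 24.3 in labelled double-KO. It fell by 1.16 ± 0.11 (SE) in *Nf2*-KO (adjusted p = 9.75e-06) and by 1.06 ± 0.11 in labelled *Rasa1*-KO (adjusted p = 2.78e-05), and did not pass in labelled double-KO (−0.34, adjusted p = 0.1). *Ddx58*, which encodes RIG-I, fell by 0.41 ± 0.08 and 0.37 ± 0.08 on the log2 scale. *Trim21*, an antibody receptor in the cytoplasm, fell by 0.59 and 0.61. *Trim25*, which ubiquitinates RIG-I, did not pass, with control libraries at 31.0, 61.4 and 76.7 CPM; with the unnumbered control left out it was lower in *Nf2*-KO (−0.89, adjusted p = 0.000562) and in labelled *Rasa1*-KO (−0.73, adjusted p = 0.0024).

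The classical interferon-stimulated effectors did not follow 1 direction. *Isg15*, a ubiquitin-like modifier, was at 0.946, 1.54 and 2.00 CPM in control and between 1.21 and 2.22 in all other libraries, and did not pass in any comparison. *Usp18*, which removes ISG15 and dampens receptor signaling, rose in labelled *Rasa1*-KO (1.9, 1.22 and 1.93 CPM beside 0.956, 0.449 and 0.813 in control; 1.18 ± 0.31 SE, adjusted p = 0.0101), and was at 0.494, 0.422 and 0.429 CPM in *Nf2*-KO (−0.72, adjusted p = 0.0851; −0.98, adjusted p = 0.0224, without control library 1). Without the unnumbered control *Usp18* was at −0.47 in *Nf2*-KO (adjusted p = 0.237). *Rsad2*, the antiviral enzyme viperin, rose in labelled *Rasa1*-KO (1.58 ± 0.42 SE, adjusted p = 0.0104), from 0.733, 0.572 and 0.714 CPM to 1.92, 1.75 and 2.36. *Bst2*, which tethers budding virus at the cell surface, rose in *Nf2*-KO (0.56, adjusted p = 0.00927) and in labelled *Rasa1*-KO (1.07, adjusted p = 0.000183). *Trim30a* rose in *Nf2*-KO (1.22, adjusted p = 0.0109). The dynamin-like *Mx1* and *Mx2*, which were not counted among the 77, fell in *Nf2*-KO (−2.30, adjusted p = 0.0303, and −0.96, adjusted p = 0.0283), with *Mx1* at 0.882 CPM in the control library without a number and 4.93 and 4.90 in the others.

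**Figure D4:**
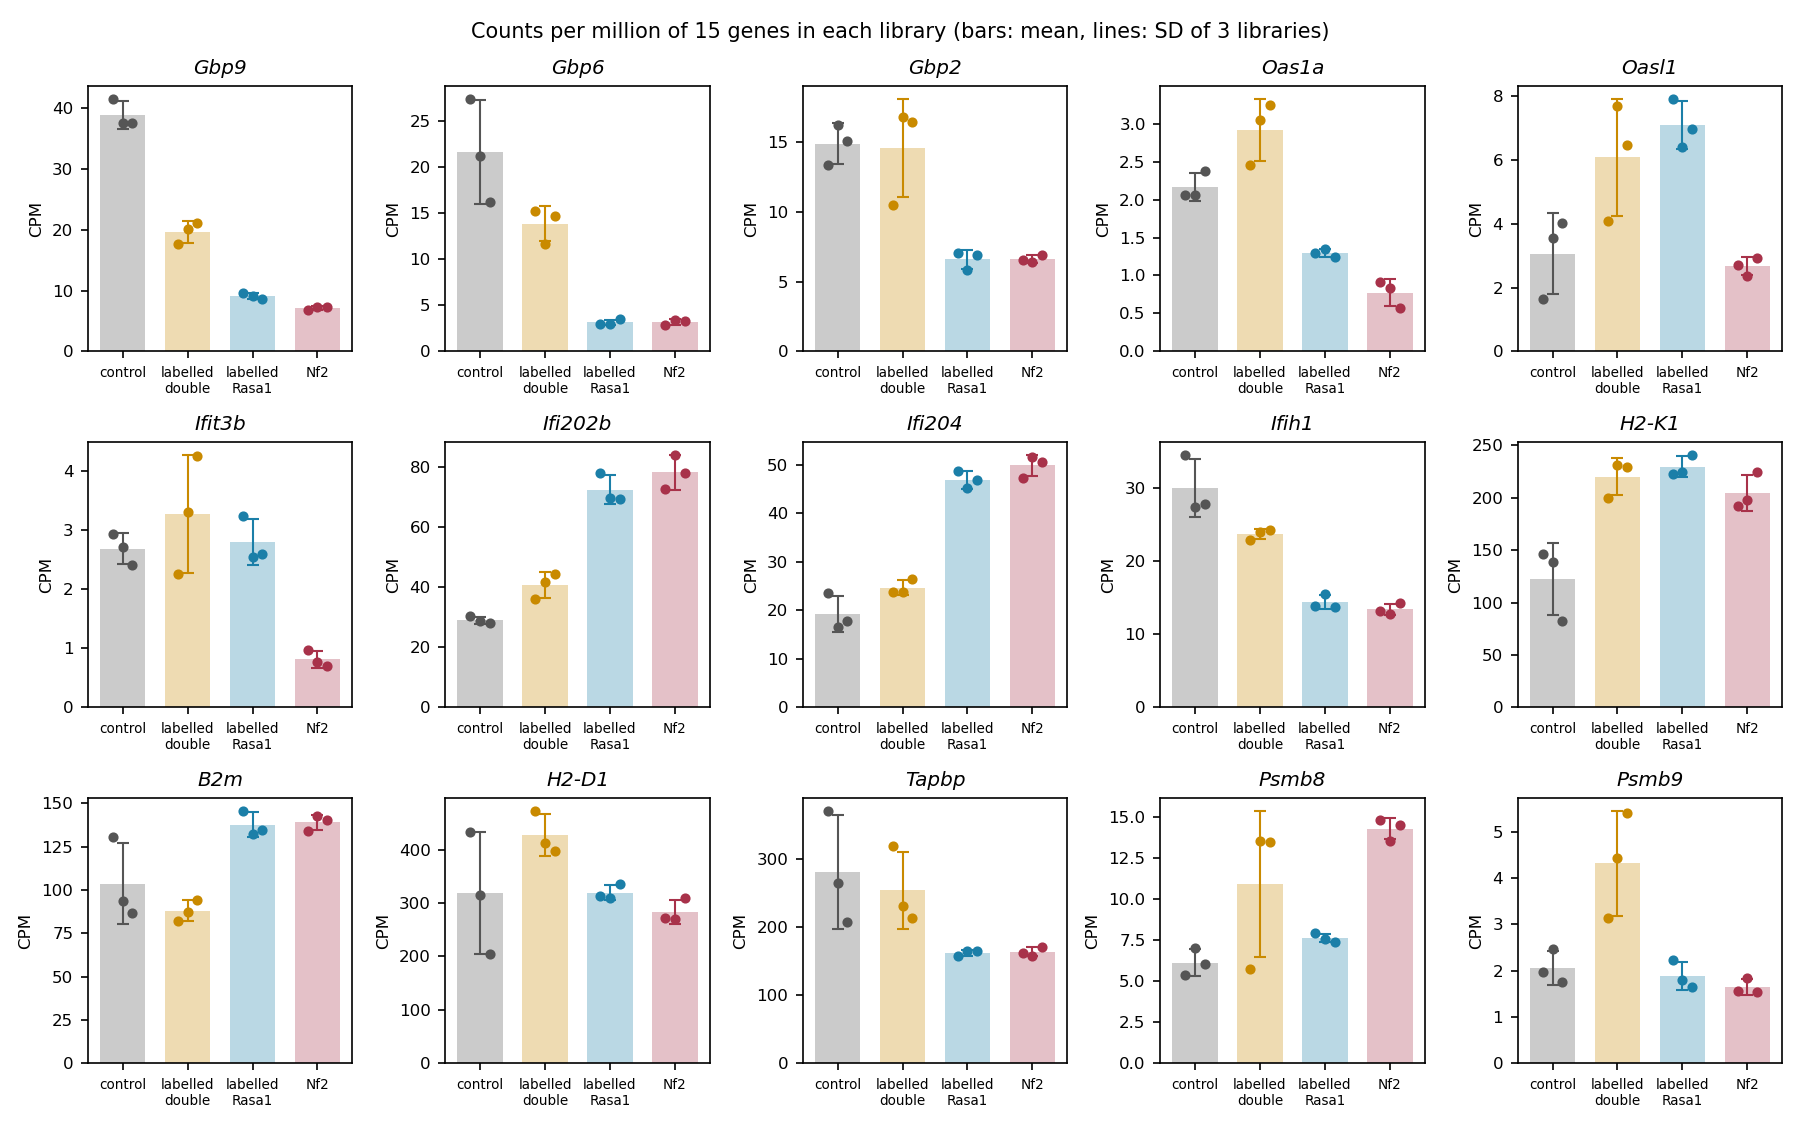
CPM (y axis, from 0) of 15 of the genes in the control, labelled double-KO, labelled *Rasa1*-KO and *Nf2*-KO libraries. Points are libraries, bars the mean and lines the SD of 3 libraries. *Gbp9*, *Gbp6*, *Gbp2*, *Oas1a* and *Ifih1* lie under control in every *Nf2*-KO and labelled *Rasa1*-KO library, *Ifit3b* lies under control in *Nf2*-KO, and *Ifi202b*, *Ifi204* and *H2-K1* lie above control in those groups.

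Antigen presentation by class I did not move as a unit. *H2-K1*, a classical class I heavy chain, was at 146, 139 and 82.5 CPM in control, 192, 198 and 224 in *Nf2*-KO, 223, 225 and 241 in labelled *Rasa1*-KO, and 200, 231 and 229 in labelled double-KO. All 9 libraries of the KO groups lay above the highest control. It rose by 0.74 ± 0.18 (SE) in *Nf2*-KO (adjusted p = 0.00593), 0.91 ± 0.18 in labelled *Rasa1*-KO (adjusted p = 0.00197) and 0.85 ± 0.18 in labelled double-KO (adjusted p = 0.0165). *H2-D1*, the other classical heavy chain here, was at 433, 315 and 206 CPM in control and between 271 and 473 in the other groups, and did not pass (−0.16, 0.00 and 0.43 in the same order). The call on *H2-D1* in labelled double-KO turned on 1 control library: with the unnumbered one left out it was 0.72 (adjusted p = 0.00574).

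*B2m*, the light chain that all class I molecules share, was at 131, 93.5 and 86.9 CPM in control, 134, 143 and 140 in *Nf2*-KO, 146, 132 and 135 in labelled *Rasa1*-KO, and 82.2, 87.3 and 94.2 in labelled double-KO. It rose by 0.42 ± 0.14 (SE) in *Nf2*-KO (adjusted p = 0.0273) and 0.41 ± 0.14 in labelled *Rasa1*-KO (adjusted p = 0.033), and these calls held under 15 and 12 of 21 alternatives. With the unnumbered control left out the values were 0.63 (adjusted p = 5.22e-05) and 0.61 (adjusted p = 7.06e-05). Among the nonclassical heavy chains, *H2-T23*, the ligand of the NKG2A receptor, rose in all 3 comparisons (0.62, 0.92 and 0.85), as did *H2-T-ps* (0.68, 0.83 and 0.96), while *H2-M3*, which presents formylated bacterial peptides, rose in *Nf2*-KO (1.18) and labelled *Rasa1*-KO (0.79). *H2-T24* rose in *Nf2*-KO (0.55) and *H2-Q6* fell there (−0.38). *H2-Q4* fell in both (−0.32 and −0.31). *H2-M2* fell in all 3 comparisons, from 0.81 ± 0.0899 CPM in control to 0.132 ± 0.0667 in *Nf2*-KO, 0.084 ± 0.0448 in labelled *Rasa1*-KO and 0.194 ± 0.0652 in labelled double-KO (SD, n = 3), with as few as 3 counts in a library. The H2 genes are close paralogs, so their counts may share reads. The spans of *H2-T23* and *H2-T24* also overlap that of *A930015D03Rik*.

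Of the 5 genes that supply and load the peptides, 1 rose and 1 fell in *Nf2*-KO, and 2 fell in labelled *Rasa1*-KO. Of all genes 20.6% rose and 22.2% fell in *Nf2*-KO, and 22.2% fell in labelled *Rasa1*-KO. *Tapbp*, which encodes tapasin, the bridge between class I and the transporter, was at 372, 266 and 207 CPM in control, 163, 158 and 172 in *Nf2*-KO, 158, 165 and 165 in labelled *Rasa1*-KO, and 319, 231 and 214 in labelled double-KO. It fell by 0.78 ± 0.20 (SE) in *Nf2*-KO (adjusted p = 0.00762) and by 0.79 ± 0.20 in labelled *Rasa1*-KO (adjusted p = 0.00746), under all 21 alternatives in both. *Tap1* did not pass, at 8.43 ± 0.495 CPM in control and 10.1 ± 1.57 in *Nf2*-KO (SD, n = 3). *Tap2*, the other transporter subunit, fell in labelled *Rasa1*-KO (−0.47, adjusted p = 0.00522) and was at −0.07 in *Nf2*-KO.

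The remaining 2 supply genes encode subunits of the immunoproteasome. *Psmb8* was at 5.35, 7.0 and 6.05 CPM in control, 14.8, 13.6 and 14.5 in *Nf2*-KO, 7.92, 7.58 and 7.39 in labelled *Rasa1*-KO, and 5.77, 13.5 and 13.5 in labelled double-KO. It rose in *Nf2*-KO (1.22 ± 0.26 SE, adjusted p = 0.00287), whereas in labelled double-KO library 1 lay within control and libraries 2 and 3 above it (0.83, adjusted p = 0.0832). There it passed without library 1 (1.14, adjusted p = 0.000812) and without both libraries that stood apart (1.05, adjusted p = 3.51e-05). *Psmb9* rose in labelled double-KO (3.13, 4.43 and 5.39 CPM beside 1.98, 2.46 and 1.75 in control; 1.06 ± 0.23 SE, adjusted p = 0.0204). The class II loading chain gene *H2-DMa* fell in *Nf2*-KO (−1.23, adjusted p = 0.00454) and labelled *Rasa1*-KO (−1.43, adjusted p = 0.00212), with control libraries at 3.74, 7.80 and 10.1 CPM. Its span overlaps that of *Brd2*, so its counts may hold reads of that gene. *H2-Ke6*, a dehydrogenase gene named for its place in the H2 region, did not pass.

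In labelled double-KO against control 12 genes passed: *Psmb9*, *H2-T-ps*, *Ifi27*, *H2-T23*, *H2-K1*, *Ifi205* and *Ifi202b* rose, and *H2-M2*, *Gbp8*, *Gbp9* and *Gbp10* were among the 5 that fell. Without labelled double-KO library 2 the calls of *Psmb9*, *H2-T-ps*, *H2-K1*, *Ifi205*, *Ifi202b*, *H2-M2*, *Gbp8* and *Gbp10* were lost. The count depended on the libraries that stood apart. It was 25 with the unnumbered control left out (30.1% of all genes), 18 without labelled double-KO library 1 (6.82%) and 38 without both (29.9%). It was 3 without labelled double-KO library 2 (2.68%), 4 without library 3 (2.73%) and 22 with DESeq2 (11.1%). It was 0 by edgeR when only the 6 libraries compared were fitted (0.102%), where 20 had a raw p under 0.05. With the unnumbered control left out, *Irf1*, *Ifit1*, *Rsad2*, *Bst2*, *H2-D1*, *Ifi27l2a*, *Ifi204*, *Ifi211* and *Oasl1* were among the genes that passed in addition. By the numbers in the deposited table names, same-numbered libraries of these 2 groups deviated from their group means together (correlations 0.313 to 0.626). Numbered libraries with crossed numbers did so too (0.258 and 0.399), so a pairing of the numbered libraries was not shown. With that number as a block 20 genes passed (13.9% of all genes). *Gbp7* (0.62), *Psmb8* (0.74), *Oasl1* (1.03) and *Ifi27l2a* (1.13) then passed as higher and *Gbp6* (−0.63) as lower.

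Labelled double-KO was also compared with labelled *Rasa1*-KO, a comparison that shares libraries with those above. It gave 33 genes that passed, beside 30.3% of all genes: 24 were higher in labelled double-KO (16.3% of all genes) and 9 lower (14.0%), and the rule of the study gave 5 (5.66%). *Ifit1bl1* (2.37 ± 0.28 SE), *Gbp6* (2.14 ± 0.19), *Gbp10* (2.03 ± 0.22), *Gbp4* (1.65 ± 0.39) and *Oas2* (1.61 ± 0.42) were higher by the most, and *Ifi209* (−1.23 ± 0.19), *Ifi211* (−1.04 ± 0.18), *Ifi205* (−0.98 ± 0.34), *Ifi204* (−0.93 ± 0.13) and *Ifi207* (−0.90 ± 0.17) lower by the most. *B2m* was lower (−0.65, adjusted p = 0.00474), while *H2-K1* was at −0.06 with an adjusted p of 0.828.

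*Nf2*-KO and labelled *Rasa1*-KO, the groups with low *Nf2* counts, were compared directly after their values had been seen. Here 7 of the 77 genes passed, beside 3.66% of all genes, and all 7 were lower in *Nf2*-KO (1.92% of all genes were lower and 1.74% higher); by the rule of the study 2 were called (1.29%). They included *Usp18* (−1.90 ± 0.32 SE, adjusted p = 0.00735), *Ifit3b* (−1.78 ± 0.25), *Ifit3* (−1.42 ± 0.24), *Oasl1* (−1.41 ± 0.31), *Ifit1* (−1.07 ± 0.20) and *Oas1c* (−1.02 ± 0.19). Of these 6, *Usp18* dampens receptor signaling and *Oasl1* represses translation of *Irf7*. *Rsad2* (−1.44, adjusted p = 0.0835), *Oas3* (−1.28) and *Oas2* (−1.30) did not pass, and the chromosome 5 Gbp genes and the Ifi200 genes did not pass either, with log2 differences between −0.70 and 0.55. *Psmb8* (0.91, adjusted p = 0.0837) and *Tap2* (0.40, adjusted p = 0.0727), with higher values in *Nf2*-KO, did not pass. With the unnumbered control left out, *Rsad2* (adjusted p = 0.0341), *Oas2* (adjusted p = 0.00903) and *Gbp9* (adjusted p = 0.0259) passed as lower in *Nf2*-KO. *Psmb8* (0.91, adjusted p = 0.0288) and *Tap2* (0.40, adjusted p = 0.0225) then passed as higher. With only these 6 libraries in the fit 28 genes passed, beside 25.8% of all genes. With 1 of the *Nf2*-KO or labelled *Rasa1*-KO libraries left out between 1 and 4 passed (1.15% to 1.49% of all genes). With the unnumbered control left out 18 passed (12.2%), and without labelled double-KO library 1 13 passed (4.39%).

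**Figure D5:**
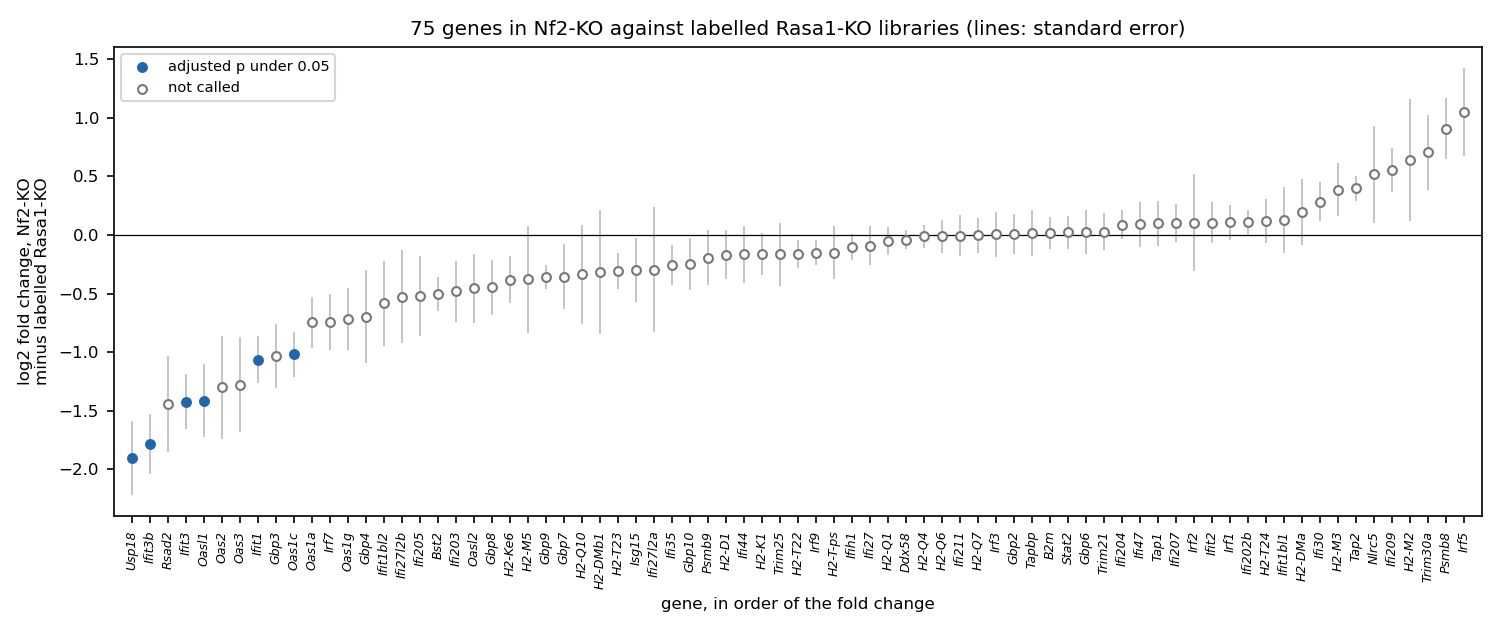
Log2 fold change of 75 of the 77 genes (x axis, in order of the value) between *Nf2*-KO and labelled *Rasa1*-KO (y axis, edgeR, with standard errors). The 6 filled points, from *Usp18* at −1.90 to *Oas1c* at −1.02, have an adjusted p under 0.05.

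Other genes of these pathways were read from fixed lists. Of 19 measured genes of nucleic acid sensing, 11 were lower in *Nf2*-KO and 10 in labelled *Rasa1*-KO, and those that passed were all lower. In each of these comparisons 22.2% of all genes were lower. *Tlr3*, the endosomal receptor of double-stranded RNA, was lower by the most (−2.48 and −2.06), followed in labelled *Rasa1*-KO by *Ticam1*, the adaptor of TLR3 (−1.39), and by *Ikbke*, a kinase that activates IRF3 (−1.39). *Ikbke* was also lower in labelled double-KO than in control (−0.60, adjusted p = 0.00657). In labelled double-KO 8 of the 19 were higher than in labelled *Rasa1*-KO, beside 16.3% of all genes.

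Of 46 other interferon-stimulated genes measured, 22 were lower and 2 higher in *Nf2*-KO, and 21 lower and 3 higher in labelled *Rasa1*-KO. Of all genes 22.2% were lower and 20.6% higher in *Nf2*-KO, and 22.2% and 19.7% in labelled *Rasa1*-KO. In *Nf2*-KO *Slfn2* (−2.12) and *Tgtp1*, an interferon γ-induced GTPase (−2.00), were lower by the most, and in labelled *Rasa1*-KO *Tgtp1* (−2.31) and *Iigp1*, a GTPase of the same class (−1.95). The genes *Rtp4* (0.50 and 0.62) and *Tdrd7* (0.38 and 0.57) were higher in both. *Cxcl10*, a chemokine for T cells, rose in labelled *Rasa1*-KO (0.94, adjusted p = 0.0059). In labelled double-KO 3 of the 46 were lower than in control, with *Ly6e* (−0.78) and *Lgals9* (−0.76) lowest, and 20 were higher than in labelled *Rasa1*-KO. Of all genes 2.46% were lower and 16.3% higher in these comparisons. Of 18 other genes of antigen processing, 7 were lower and 3 higher in *Nf2*-KO, and 7 lower and 1 higher in labelled *Rasa1*-KO. The shares over all genes in these comparisons are those given for the 46 genes. *Azgp1*, a class I-like protein (−3.15 and −2.13), and *Cd74*, the class II invariant chain (−2.96 and −2.57), were lower by the most, while *Ctsl*, a lysosomal protease, was higher (0.63 and 0.62), as was *Fcgrt*, the neonatal Fc receptor, in *Nf2*-KO (0.74). In labelled double-KO *Cd1d1*, which presents lipids (−1.24), and *Erap1*, which trims peptides (−0.44), were lower than in control.

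Markers of other cell types also differed between some of the groups. Of 18 immune markers 3 were measured, and their summed level was between 6.60 and 10.2 CPM in control, 16.6 and 18.3 in *Nf2*-KO, 21.4 and 23.9 in labelled *Rasa1*-KO and 8.16 and 18.2 in labelled double-KO, nearly all of it *Cd68*. *Ptprc*, which marks all leukocytes, was at a mean of 0.412 CPM in control and 0.232 in *Nf2*-KO. Of 8 fibroblast and endothelial markers measured out of 11, 6 were higher and 2 lower in both *Nf2*-KO and labelled *Rasa1*-KO, with sums between 74.7 and 922 CPM in control, 6991 and 7584 in *Nf2*-KO and 2477 and 2614 in labelled *Rasa1*-KO, and with *Col3a1* at the highest mean. Of 14 gastric epithelial markers measured out of 18, 5 were lower and 1 higher in *Nf2*-KO, and 4 lower and 5 higher in labelled *Rasa1*-KO. Of all genes 22.2% were lower and 20.6% higher in *Nf2*-KO, and 22.2% and 19.7% in labelled *Rasa1*-KO. The sums of the 14 epithelial markers were between 3871 and 6582 CPM in control and between 5071 and 5621 in *Nf2*-KO. In labelled *Rasa1*-KO the sums were between 7657 and 8000, and in labelled double-KO between 6463 and 7420. The mucins *Muc5ac* (−4.47) and *Muc1* (−3.10) were lower by the most in *Nf2*-KO and *Krt7* (0.98) was higher, while *Krt8*, *Krt18* and *Krt19* did not pass there. The part of these changes in the results above was not tested, and in bulk RNA a smaller share of cells that express a gene and less of its RNA per cell cannot be told apart.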

How the data were processed

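RNA-seq was made from 12 libraries of S1 cells, 3 for each of 4 genotypes, with a stranded total RNA kit after removal of ribosomal RNA. Per the submitters' processing notes and the methods of the study, reads were trimmed with Trimmomatic 0.38, aligned to mm10 with HISAT2 2.1.0, sorted with SAMtools 1.9 and assigned to RefSeq genes with StringTie 2.1.3b. The read counts per gene deposited by the authors were used as they stood. The FPKM values deposited by the authors, which divide reads by gene length and depth, served for levels between genes and for 1 alternative. The deposited TPM and transformed columns were not used. Every gene of the tables had at least 1 count in all 12 libraries, so genes silent in a group are missing. Whether counting used strand or how it shared reads among paralogs is not given in the sources used here, so the *H2*, *Gbp*, *Oas1*, *Ifi200* and *Ifit3* genes, and the 15 of 77 genes that overlap another gene, are uncertain to that extent.

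Groups followed the sample labels. Counts were fitted with edgeR 4.0.16 (quasi-likelihood test, TMM factors between 0.9459 and 1.15, filterByExpr, 1 fit over all 12 libraries, R 4.3.3), with Benjamini-Hochberg adjustment over 18053 genes and calls at an adjusted p under 0.05. The fit was tested on simulated data. Alternatives were DESeq2 1.42.0, RLE size factors, no filter, only the groups compared, a replicate block, leaving out libraries, the rule of the study, and limma 3.58.1 on log2(FPKM + 1) and log2(FPKM + 0.1). Named genes were a fixed list of 35 symbols and, per comparison, up to 5 genes that rose and 5 that fell most among those called whose groups did not overlap and whose lowest count was above 3; other genes were named after their values were seen. The genes and lists were chosen with earlier results of these data known, and Nf2-KO against labelled Rasa1-KO was added after the values had been seen. Promoter sequences came from RefSeq on GRCm38.p6, the same primary assembly as mm10. Deviations from the group means correlated by more than 0.1 in all 3 pairs of control and labelled double-KO libraries with the same number, or none, in the deposited names (0.313 to 0.626), and in no other 2 groups by either numbering. Results of some genes are not reported here, and 2 of the 77 are left out of the plots.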

Additional observations from a re-analysis of the deposited data

How the results depend on the processing

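Counts of the 77 genes stayed within 1.5 times the reported count under most alternatives: 45 to 68 over the 4 groups, 34 to 56 in Nf2-KO against control, 29 to 54 in labelled Rasa1-KO against control and 24 to 48 in labelled double-KO against labelled Rasa1-KO. The rule of the study gave 14, 9 and 5 in the last 3 of these, 1 in labelled double-KO against control and 2 in Nf2-KO against labelled Rasa1-KO. Over all genes it called 11.4%, 9.27%, 5.66%, 2.03% and 1.29% in the same order. The count of 12 in labelled double-KO against control was the least stable: 22 with DESeq2, 38 without both libraries that have no number in the deposited names, between 3 and 25 with 1 library left out, and 0 by edgeR with only the groups compared in the fit, where 20 had an unadjusted p under 0.05. The count of 7 in Nf2-KO against labelled Rasa1-KO was 18 with DESeq2, 28 with only the groups compared, 28 without both those libraries, and between 1 and 18 with 1 library left out. In labelled double-KO against control and in Nf2-KO against labelled Rasa1-KO the share of all genes that passed also moved between alternatives, as given above. The ranges and block counts of this section stand without that share, so they do not show a shift particular to the 77 genes. The cause of these shifts was not tested. Replicate numbers in the titles did not pair the samples, since correlations of same-numbered libraries ran from −0.379 to 0.399. By the numbers in the deposited names, all same-numbered pairs correlated by more than 0.1 in control with labelled double-KO alone. There the pair without a number correlated at 0.626 and the numbered pairs at 0.313 and 0.444, but crossed numbers gave 0.258 and 0.399. A block by title number gave 47, 43, 39, 4, 26 and 2 genes (over the 4 groups, then Nf2-KO, labelled Rasa1-KO and labelled double-KO against control, labelled double-KO and Nf2-KO against labelled Rasa1-KO), and a block by the number in the deposited names 57, 52, 44, 20, 39 and 17. No named gene reversed a call: of the called values, 2153 settings kept the call and 289 lost it, and of the values not called, 2970 settings left them so and 198 gave a call. The lowest depth, 43818139 counts, left 7 of the 77 genes with under 20 counts in a library.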
